A study of Oryza sativa Japonica Group with 6 samples.

Results

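The DREB1 genes of rice, also called CBF genes, were examined in 14-day-old seedlings of the OsINO80 mutant osino80-2, called osino80 here, and of wild type (WT). The family was taken as 10 loci by their published locus numbers, of 55801 loci in the deposited tables. It comprised the chromosome 9 neighbours DREB1B (LOC_Os09g35010), DREB1H (LOC_Os09g35020) and DREB1A (LOC_Os09g35030), and DREB1C (LOC_Os06g03670), DREB1D (LOC_Os06g06970), DREB1E (LOC_Os04g48350), DREB1F (LOC_Os01g73770), DREB1G (LOC_Os02g45450), DREB1J (LOC_Os08g43200) and DREB1I (LOC_Os08g43210). The family was chosen because the chromosome 9 genes were higher in osino80 than in WT in these same libraries. The values of its members in that comparison are therefore a description, given without p-values. Both groups were cultivar Nipponbare, grown in chambers under a short-day photoperiod without treatment, with 3 libraries each. The labels do not describe the lesion of osino80-2, nor do they tell if the libraries of a group stem from different plants. The p-values given here then reflect only how far libraries of 1 group differ, which may be technical.

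DREB1 proteins are transcription factors with a single AP2/ERF DNA-binding domain. They bind the dehydration-responsive or C-repeat element (DRE/CRT) in the promoters of stress genes and activate them. In rice and in Arabidopsis several DREB1 genes are switched on quickly when the plant is chilled, and overexpression of DREB1A or DREB1B makes plants more tolerant of cold, drought and salt but stunts their growth. OsINO80 encodes the ATPase of the INO80 complex, which moves nucleosomes and exchanges histones along chromatin. Setting the genotypes side by side shows how transcript levels differ between this mutant line and WT, here in seedlings that were not chilled. Whether other differences between the line and WT, apart from OsINO80, play a part was not tested.

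Total counts were 62239760, 61881971 and 66097710 in osino80 replicates 1 to 3 and 73293481, 69616322 and 61426662 in WT replicates 1 to 3. OsINO80 itself (LOC_Os03g22900, named from its published locus number) had 60.6 ± 0.606 CPM (counts per 1000000, TMM-scaled) in osino80 and 119 ± 2.43 CPM in WT (SD, n = 3 each), so 51.1% of the WT level was left. The libraries contained green tissue: the 3 leaf markers RBCS2, CAB1R and CAB2R, which encode a Rubisco small subunit and chlorophyll-binding proteins, summed to 36539 to 37623 TPM (transcripts per 1000000) in osino80 and 35869 to 36460 TPM in WT, without overlap, with 1 of the 3 higher, 1 lower and 1 not passing. The summed level of the 3 root markers Lsi1, PIP2.5 and RCc3 was 20.9 to 21.8 TPM in osino80 and 16.2 to 17.3 TPM in WT, again without overlap. Lsi1, a silicon transporter gene, made up most of it and was the 1 marker of the 3 that rose (log2 fold change 0.35 ± 0.07 SE, edgeR adjusted p = 9.77e-07). The other 2 had counts in every library but were low. RCc3 had 12, 10 and 8 counts in osino80 and 2, 10 and 20 counts in WT. PIP2.5 had 64, 77 and 48 counts in osino80 and 73, 74 and 61 counts in WT. How much root tissue the libraries held was not tested. The part of tissue make-up in the results below was not tested. In RNA from a mix of cells, fewer cells that express a gene and less RNA per cell cannot be told apart.

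The DREB1 genes gave few counts in these unchilled seedlings, and DREB1F gave none. Summed over the 10 members, the libraries held 534 to 573 counts in osino80 and 168 to 198 counts in WT. The members' TPM, which are per transcript length and can be compared between genes, added to 13.4 ± 0.411 TPM in osino80 and 3.85 ± 0.371 TPM in WT (SD, n = 3 each). For comparison, the median locus with a TPM above 0 had 4.65 TPM in osino80 and 4.62 TPM in WT. DREB1A, the member with the highest level, stood above 53.7% of such loci in osino80 and 35.2% in WT.

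The chromosome 9 genes carried the rise. DREB1B, DREB1H and DREB1A together made up 11.1 ± 0.623 TPM in osino80 and 1.86 ± 0.113 TPM in WT. The other 7 members together made up 2.32 ± 0.223 TPM in osino80 and 1.99 ± 0.301 TPM in WT, with overlapping libraries. The share of all DREB1 transcript that came from chromosome 9 was thus 81.4% to 85.2% in the osino80 libraries and 45.5% to 52.0% in the WT libraries.

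**Figure D1:**
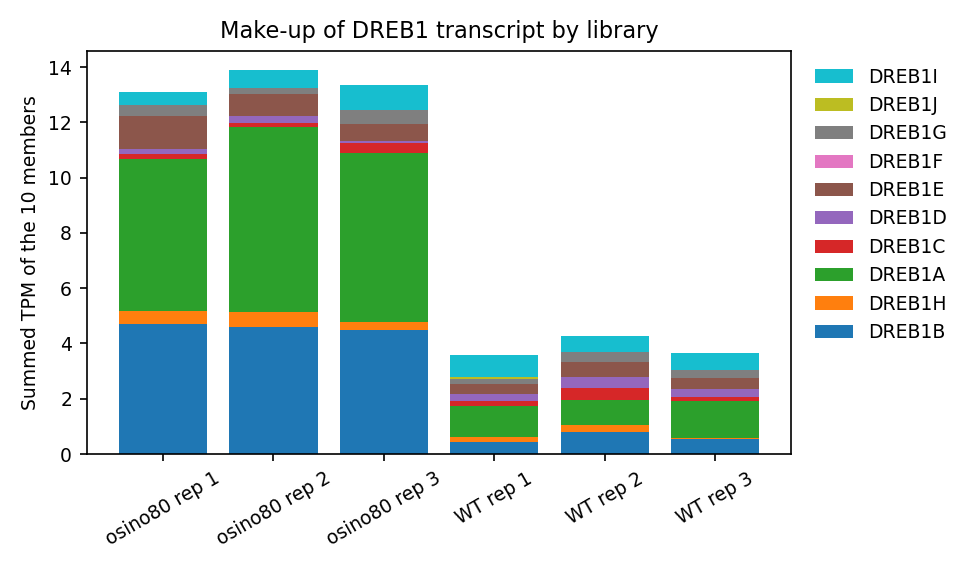
Summed TPM of the 10 DREB1 members in each library, stacked by gene; osino80 libraries stand left of WT libraries. The stacks reach 13.1 to 13.9 TPM in osino80 and 3.60 to 4.27 TPM in WT, and DREB1A and DREB1B fill most of the difference.

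DREB1B, one of the founding cold-inducible rice DREB1 genes, had the largest fold change of the family. It had 183, 176 and 181 counts in osino80 and 22, 28 and 23 counts in WT. The deposited TPM, which were not these counts scaled by a fixed length, were 4.69, 4.58 and 4.50 in osino80 and 0.445, 0.811 and 0.561 in WT. Every osino80 library stood far above every WT library, and the osino80 libraries were nearly alike (4.59 ± 0.0966 TPM, SD, n = 3). The edgeR log2 fold change was 2.97 ± 0.24 (SE), and 0.538% of the 24914 genes tested had a higher one.

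DREB1A, whose product binds the DRE/CRT element and is induced early in cold, had the highest level of the family in both genotypes. It had 233, 286 and 280 counts in osino80 and 60, 48 and 64 counts in WT. The deposited TPM were 5.49, 6.69 and 6.12 in osino80 and 1.13, 0.905 and 1.31 in WT, again without overlap. The log2 fold change was 2.30 ± 0.18 (SE), and 0.722% of tested genes had a higher one.

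DREB1H, which lies between them, moved in the same direction at a far lower level. It had 17, 21 and 11 counts in osino80 and 6, 10 and 2 counts in WT. The groups did not overlap, but the highest WT library and the lowest osino80 library were 1 count apart as deposited. The log2 fold change was 1.54 ± 0.65 (SE). DREB1H entered the test only through osino80: the filter on low counts asked for 0.156 CPM in 3 libraries, which all 3 osino80 libraries reached and 0 WT libraries did. It was past the edgeR threshold of 0.05 with the main settings, but not in 8 of the 16 alternatives that could test it. These included leaving out osino80 replicate 1 or 2 or WT replicate 1 or 3, with log2 fold changes of 1.499, 1.303, 1.493 and 1.18. The treatment of reads that map to several of these related copies is not given in the sources used here, so the split of reads among the 3 genes is uncertain.

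The make-up of the cluster overlapped between the genotypes in TPM, but for DREB1B it did not in counts. DREB1A gave 51.5% to 56.5% of the cluster's TPM in osino80 and 46.5% to 68.6% in WT. DREB1B gave 38.7% to 44.0% in osino80 and 25.7% to 41.7% in WT. DREB1H gave 2.56% to 4.75% in osino80 and 1.94% to 11.8% in WT. In TPM the ranges thus overlapped for each of the 3 genes. In counts DREB1B gave 183 of 433, 176 of 483 and 181 of 472 cluster counts in osino80. In WT it gave 22 of 88, 28 of 86 and 23 of 89, lower shares without overlap. The count shares of DREB1A and DREB1H overlapped. Whether the share of DREB1B separated the genotypes therefore depended on the measure. The ratio of DREB1B to DREB1A in TPM was 0.758 ± 0.0872 in osino80 and 0.573 ± 0.280 in WT (SD, n = 3 each).

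**Figure D2:**
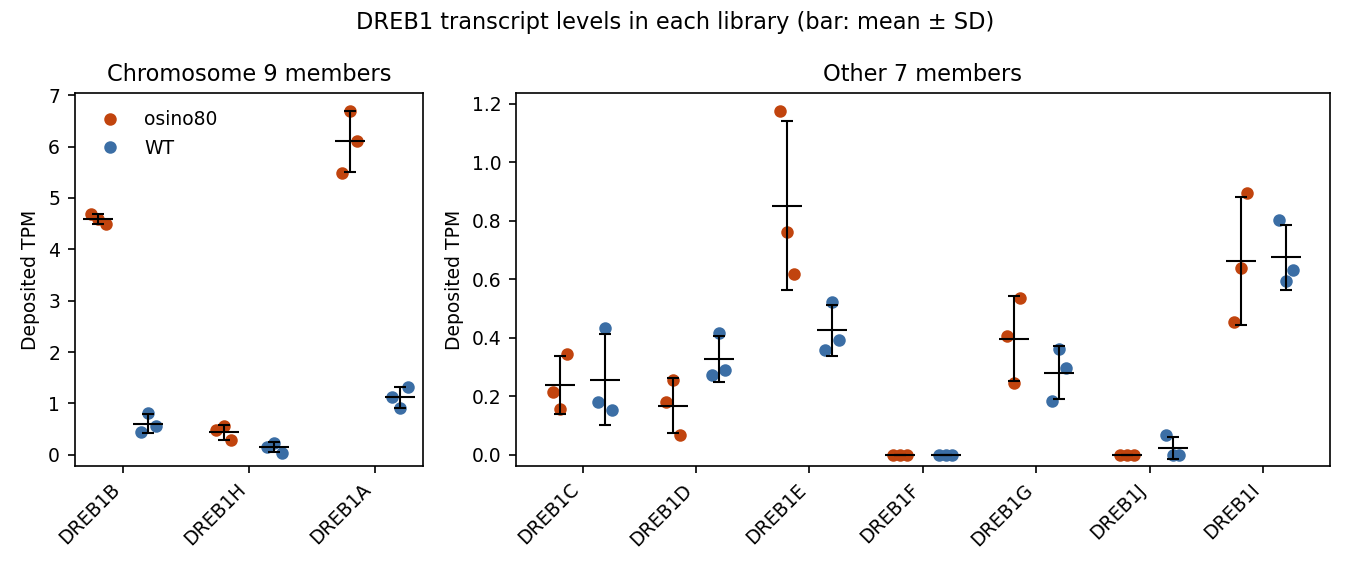
Deposited TPM of each DREB1 member in each library (points), with the mean and SD (bars), osino80 left of WT for each gene; the left and right panels have different scales. DREB1B and DREB1A stand at 4.50 to 6.69 TPM in osino80 and at 0.445 to 1.31 TPM in WT, while DREB1H in the left panel and the 7 members outside chromosome 9 in the right panel stay below 1.2 TPM in every library.

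DREB1E had the largest fold change outside chromosome 9. It had 1.18, 0.762 and 0.617 TPM in osino80 and 0.360, 0.524 and 0.393 TPM in WT. The groups did not overlap, although the osino80 libraries ranged widely (46, 30 and 24 counts, against 16, 24 and 16 in WT). The log2 fold change was 0.93 ± 0.45 (SE) and did not pass edgeR's threshold; it passed on the log2 TPM scale with either pseudocount.

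DREB1G, which has been overexpressed in rice to raise tolerance of water deficit, had 26, 14 and 26 counts in osino80 and 13, 22 and 18 counts in WT. Its log2 fold change of 0.40 ± 0.50 (SE) was smaller than its error. DREB1I had 15, 24 and 33 counts in osino80 and 34, 28 and 24 counts in WT, a log2 fold change of -0.16 ± 0.44 (SE). In both genes the libraries of the 2 genotypes overlapped.

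DREB1C, whose overexpression in rice has been linked to faster growth and higher yield, also overlapped. It had 8, 8 and 14 counts in osino80 and 9, 24 and 11 counts in WT, a log2 fold change of -0.46 ± 0.60 (SE). WT replicate 2 set its sign: without that library the log2 fold change was 0.06. DREB1I likewise changed sign without osino80 replicate 1, to 0.07.

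Of the members, 3 were too low for the test. DREB1D had 6, 9 and 4 counts in osino80 and 11, 14 and 10 counts in WT, the only member whose osino80 libraries all lay below the WT libraries in CPM and in TPM; its highest osino80 library and lowest WT library were 1 count apart. DREB1J, numbered next to DREB1I, had 0 counts in each osino80 library and 4, 0 and 0 counts in WT. DREB1F, reported to respond to salt, drought, cold and abscisic acid in rice, had 0 counts in all 6 libraries. A count of 0 allows up to 3 counts per library, which is 0.0454 to 0.0485 CPM in osino80 and 0.0409 to 0.0488 CPM in WT, for counting error only.

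Of the 7 members tested, 3 were past the edgeR threshold of 0.05 on the higher side, namely the chromosome 9 genes, and 0 on the lower side; over all tested genes 18.4% were past it on the higher side and 19.1% on the lower side. In CPM 4 of the 7 had all osino80 libraries above all WT libraries and 0 had all below, as did 22.8% and 22.9% of all tested genes. Since the family was chosen on this contrast, nothing is read from these counts. The median log2 fold change was 0.93 over the 7 tested members, 0.12 over the 4 outside chromosome 9 and 0.00 over all tested genes. Nothing is read from these medians either, for the same reason. They include DREB1H, which entered the test only through osino80. They leave out DREB1D, which was lower in every osino80 library but too low to test.

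The counts behind the members limited what could be seen. Among 2266 tested genes with a mean count of 10 to 30, where DREB1C, DREB1E, DREB1G, DREB1H and DREB1I lie, the median SE of a log2 fold change was 0.53. Of these genes 13.0% were past the threshold, and the smallest change that passed was 1.06 on the log2 scale. Changes smaller than that in these 5 members did not pass edgeR at this depth. At a mean count of 100 to 200, which covers DREB1A and DREB1B, the median SE was 0.18 over 2061 genes and 26.0% passed.

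The order of levels within the family also differed by genotype. In osino80 it ran DREB1A, DREB1B, DREB1E, DREB1I, DREB1H, DREB1G, DREB1C and DREB1D, with mean TPM of 6.10, 4.59, 0.852, 0.663, 0.441, 0.396, 0.238 and 0.168; DREB1F and DREB1J were listed at 0. Neighbours in this order were apart, in the sense that their 3 libraries did not overlap, for DREB1A and DREB1B and for DREB1B and DREB1E; all later neighbours overlapped. In WT the order was DREB1A, DREB1I, DREB1B, DREB1E, DREB1D, DREB1G, DREB1C, DREB1H and DREB1J, with mean TPM of 1.12, 0.675, 0.606, 0.425, 0.326, 0.281, 0.256, 0.141 and 0.0223. There only DREB1A and DREB1I were apart. DREB1B was thus below DREB1A and apart from the next gene down in osino80, while in WT it overlapped the genes on either side of it.

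The reference table of rice genes lists no gene between DREB1B, DREB1H and DREB1A, and none between DREB1J and DREB1I. Loci numbered next to the members were examined to see whether the surroundings moved with them, taking the nearest 5 on each side. Next to the chromosome 9 cluster 5 of 10 loci were tested. Of these 0 rose, 2 fell and 3 did not pass, and the highest log2 fold change was 0.10. Over all tested genes 18.4% were higher and 19.1% lower, and with 5 loci tested nothing is read from these counts. The locus numbered just before DREB1B, LOC_Os09g35000, changed by -0.33 ± 0.11 on the log2 scale (SE; edgeR adjusted p = 0.0107); it was picked out after its values were seen because it adjoins the cluster. LOC_Os09g35540 had 32, 38 and 30 counts in osino80 and 96, 70 and 96 counts in WT, a change of -1.30 ± 0.30 on the log2 scale (SE; edgeR adjusted p = 9.22e-05). The loci used here jump from LOC_Os09g35030 to LOC_Os09g35530, so how near LOC_Os09g35540 lies to DREB1A is not known from the files.

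Around all 10 members 45 of 70 neighbouring loci were tested, of which 5 rose and 11 fell, against 18.4% and 19.1% of all tested genes. Without osino80 replicate 3 the number that rose was 3, and without WT replicate 3 it was 7. The largest change belonged to LOC_Os06g03650, numbered 2 loci before DREB1C, which had 42, 41 and 38 counts in osino80 and 0 counts in each WT library. Taking 3 counts over the 3 WT libraries together as the floor, it was at least 43.3-fold higher in osino80 (edgeR adjusted p = 9.71e-14). This bound is for counting error only, and would be lower if fragments were counted by each of their reads. The locus between LOC_Os06g03650 and DREB1C, LOC_Os06g03660, missed the threshold at -0.06 ± 0.04 (SE) on the log2 scale. Of the 5 tested neighbours of DREB1F, 0 rose and 4 fell, by 0.18 to 0.41 on the log2 scale. These neighbours were picked out of all the stretches after their values were seen, so nothing is read from this count.

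**Figure D3:**
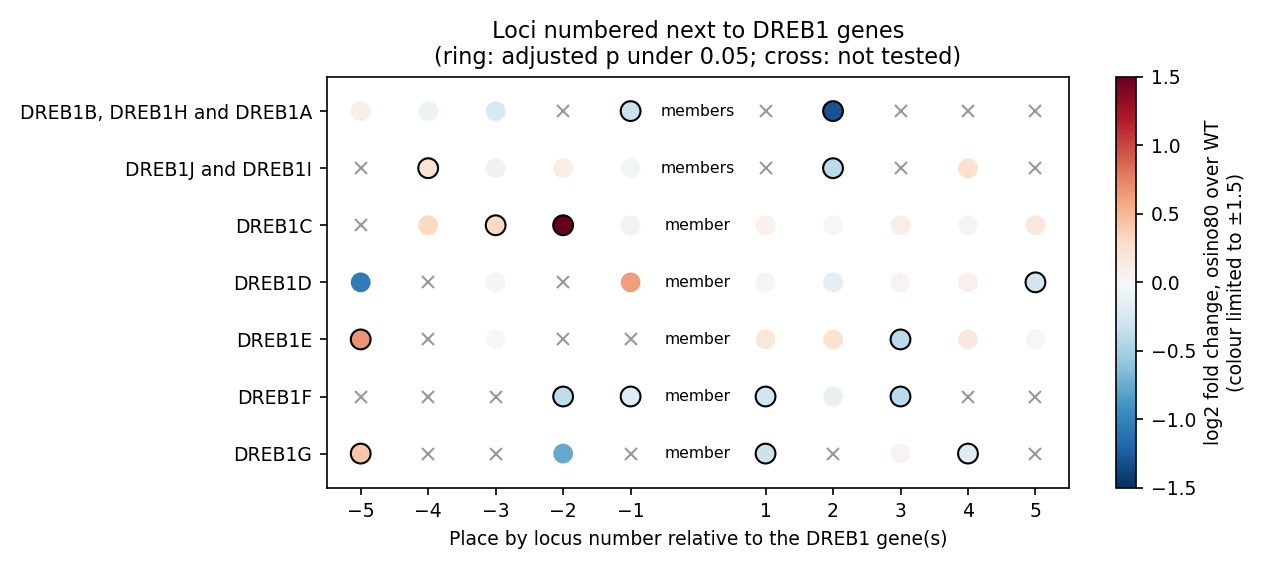
Log2 fold change, osino80 over WT, of the 5 loci numbered before and after each DREB1 gene or group of adjoining DREB1 genes; columns are places by locus number, colour gives the value and is limited to 1.5 in either direction, rings mark an edgeR adjusted p under 0.05 and crosses loci too low to test. No ringed locus beside the chromosome 9 cluster is higher in osino80, and LOC_Os06g03650 before DREB1C is the darkest point.

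Of 15 genes listed as regulators of DREB1 expression or of cold responses, all tested, 3 rose, 2 fell and 10 did not pass. Over all tested genes 18.4% were higher and 19.1% lower. Their median log2 fold change was 0.04, and 0.00 over all tested genes. This list was chosen with earlier results of these data known, so its counts and median are a description. ICE1, the bHLH factor named for its Arabidopsis counterpart that activates CBF genes in the cold, had 15.9 ± 0.653 CPM in osino80 and 15.7 ± 0.815 CPM in WT (SD, n = 3 each) and did not pass (log2 fold change 0.03 ± 0.07 SE). Its relative bHLH001 rose, to 11.4 ± 0.283 CPM in osino80 against 8.71 ± 0.560 CPM in WT, a change of 0.39 ± 0.09 on the log2 scale (SE; edgeR adjusted p = 4.53e-05). MPK3, a MAP kinase that stabilises ICE1 in rice, rose by 0.32 ± 0.08 on the log2 scale (edgeR adjusted p = 0.000420). MYBS3, a MYB repressor that lowers DREB1 expression in rice late in cold, rose by 0.15 ± 0.03 (edgeR adjusted p = 1.18e-06).

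The 2 genes of this list that fell were PHYB and HOS1. PHYB encodes phytochrome B, a red light receptor, and had 71.1 ± 0.972 CPM in osino80 and 79.7 ± 0.732 CPM in WT, a change of -0.16 ± 0.03 on the log2 scale (SE; edgeR adjusted p = 2.55e-06). HOS1, a ubiquitin ligase that targets ICE1 in Arabidopsis, changed by -0.12 ± 0.04 on the log2 scale (SE; edgeR adjusted p = 0.0151). Its call was lost without osino80 replicate 1 (edgeR adjusted p = 0.102) or WT replicate 2 (0.0589), with values between 0.0126 and 0.102 across the alternatives. Without either library the number of these genes that fell was 1. SIZ1, a SUMO ligase that protects ICE1 in Arabidopsis, missed the threshold at 0.06 ± 0.03 (SE) on the log2 scale (edgeR adjusted p = 0.0510), but passed without osino80 replicate 1 (0.0393) or 3 (0.0371), in a range of 0.0371 to 0.362. No gene of the list that passed changed by as much as 1.5-fold, and MYB30, which did not pass, was 2.11-fold higher. Whether these transcript levels bear on the DREB1 genes was not tested.

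Of 17 genes listed as induced by cold, drought or abscisic acid, not each by all of these, 16 were tested. Of these 3 rose, 8 fell and 5 did not pass, against 18.4% higher and 19.1% lower of all tested genes. Their median log2 fold change was -0.28, and 0.00 over all tested genes. The list was chosen with earlier results of these data known, so nothing is read from these counts or this median. LIP9, a dehydrin gene that DREB1A overexpression raises in rice, had 36.0 ± 1.22 CPM in osino80 and 35.1 ± 2.28 CPM in WT (SD, n = 3 each) and did not pass, at 0.04 ± 0.05 (SE) on the log2 scale. The genes that fell most were LEA3, OCPI1, RAB16B and RAB16A. OCPI1, a chymotrypsin inhibitor gene induced by drought, had 1.02 ± 0.323 CPM in osino80 and 4.83 ± 0.163 CPM in WT, a change of -2.25 ± 0.17 on the log2 scale (SE; edgeR adjusted p = 1.90e-31). The dehydrin gene RAB16B had 10, 13 and 18 counts in osino80 and 66, 85 and 50 counts in WT, a change of -2.19 ± 0.39 on the log2 scale (SE; edgeR adjusted p = 4.72e-07). The late embryogenesis abundant protein gene LEA3 and the dehydrin gene RAB16A, both inducible by abscisic acid, had log2 fold changes of -2.48 ± 0.18 and -1.92 ± 0.16 (SE).

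GOLS2, a galactinol synthase gene of raffinose synthesis, had 7.83 ± 0.476 CPM in osino80 and 12.9 ± 1.36 CPM in WT (log2 fold change -0.72 ± 0.09 SE, edgeR adjusted p = 1.04e-14). P5CS1, which encodes the enzyme that opens proline synthesis, fell by 0.34 ± 0.03 on the log2 scale (edgeR adjusted p = 1.15e-27). TPP1, a trehalose-6-phosphate phosphatase gene induced by cold, had 68, 71 and 79 counts in osino80 and 32, 68 and 39 counts in WT, a change of 0.74 ± 0.29 on the log2 scale (SE; edgeR adjusted p = 0.0335). Its call was lost without osino80 replicate 1 (edgeR adjusted p = 0.0582), 2 (0.0758) or 3 (0.0956) or WT replicate 1 (0.234) or 3 (0.0856), in a range of 0.00732 to 0.234. SNAC1, a NAC factor of drought responses in guard cells, rose by 0.44 ± 0.04 on the log2 scale (edgeR adjusted p = 8.06e-22).

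**Figure D4:**
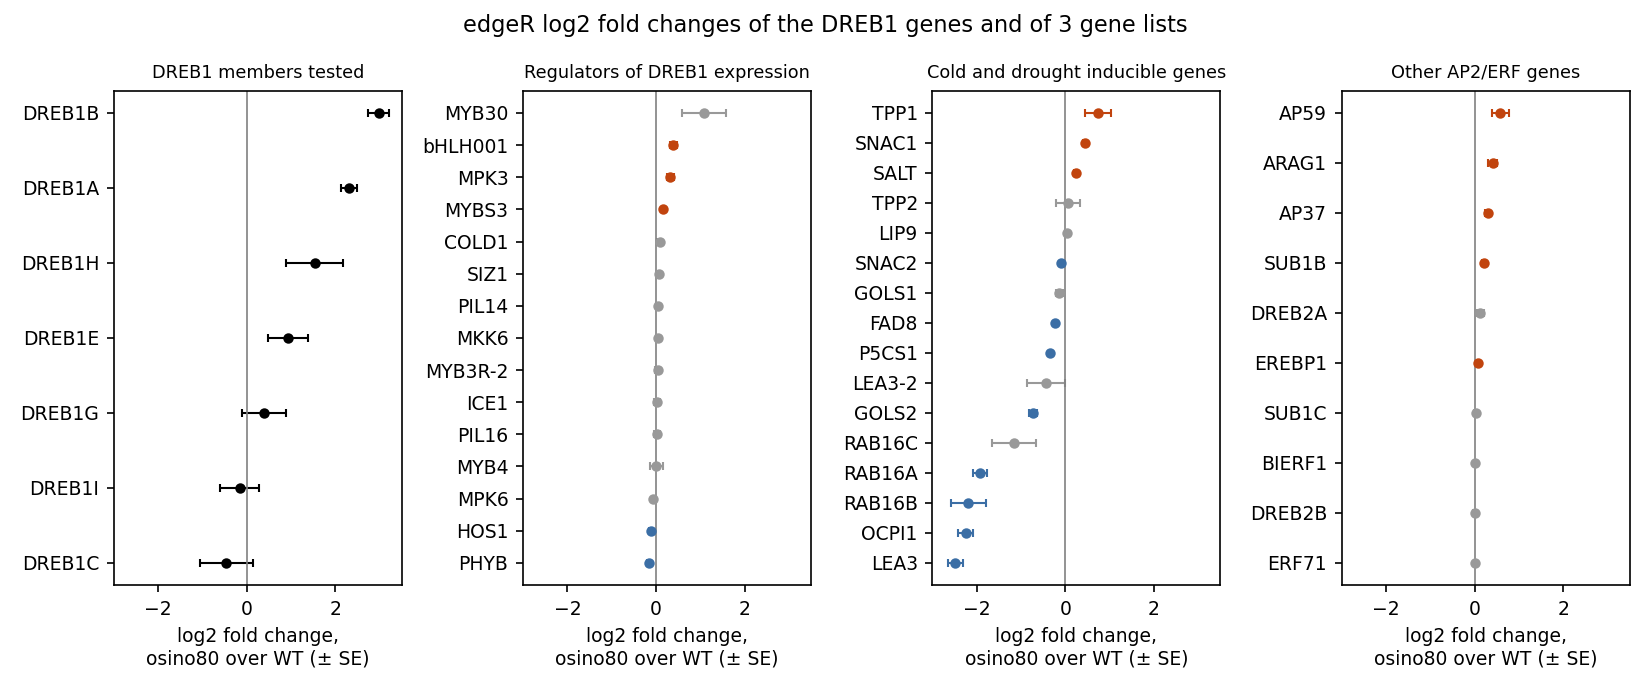
edgeR log2 fold changes, osino80 over WT, with standard errors, for the 7 tested DREB1 members (black, a description) and the tested genes of 3 lists; red points rose, blue points fell and grey points did not pass an adjusted p of 0.05. DREB1B and DREB1A at 2.97 and 2.30 lie above every gene of the lists, and the lowest gene is LEA3 at -2.48.

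Of 13 other genes with an AP2/ERF domain 10 were tested; 5 rose, 0 fell and 5 did not pass, against 18.4% higher and 19.1% lower of all tested genes. Their median log2 fold change was 0.10, and 0.00 over all tested genes. These values are a description too, as the list was chosen with earlier results of these data known. The closest relatives by function, DREB2A and DREB2B, which act in drought and heat, did not pass at 0.12 ± 0.08 and 0.01 ± 0.04 on the log2 scale (SE). ARAG1, a DREB-type gene responsive to abscisic acid, rose by 0.40 ± 0.11 (edgeR adjusted p = 0.000802). SUB1B, an ethylene response factor gene of the submergence locus, rose by 0.21 ± 0.04 (edgeR adjusted p = 2.68e-06). AP37 (LOC_Os01g58420), an ethylene response factor gene whose overexpression raises drought tolerance, rose by 0.29 ± 0.05 (edgeR adjusted p = 2.47e-07). In the reference table the name AP37 belongs to a different chromosome, and without this locus 4 of 9 rose.

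AP59, related to AP37, rose to 2.33 ± 0.284 CPM in osino80 against 1.57 ± 0.438 CPM in WT, a change of 0.58 ± 0.19 on the log2 scale (SE; edgeR adjusted p = 0.0103). Its call was lost without osino80 replicate 1 (edgeR adjusted p = 0.0781) or WT replicate 1 (0.190), in a range of 0.00428 to 0.190. EREBP1 rose by 0.07 ± 0.03 on the log2 scale (edgeR adjusted p = 0.0136), a call lost without osino80 replicate 3 (0.159, range 0.00907 to 0.159). DREB2C had 4, 2 and 2 counts in osino80 and 12, 12 and 2 counts in WT and was not tested.

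Of the 41 tested genes in the 3 lists, those with a log2 fold change nearest to the cluster's median of 2.30 were MYB30, TPP1 and AP59. MYB30, a MYB repressor of cold tolerance in rice, had 24, 26 and 30 counts in osino80 and 22, 15 and 4 counts in WT, a log2 fold change of 1.08 ± 0.50 that did not pass (SE, edgeR adjusted p = 0.0788). It passed without WT replicate 1 (edgeR adjusted p = 0.0459), with values between 0.0283 and 0.357 across the alternatives, and in the reference table its name belongs to a different chromosome. All 3 lay well short of the cluster's median. The cluster was chosen because it was higher in these libraries, so nothing is read from this shortfall. With 3 libraries in each of 2 groups, likeness was measured by the fold change alone.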

How the data were processed

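The authors deposited raw counts per gene (whole numbers) and a table of TPM. The submitters' processing notes name featureCounts, HISAT2, SAMtools and Cutadapt. Their versions, the genome build, annotation, strand setting and handling of read pairs and multi-mapping reads are not given in the sources used. Of the counts between 1 and 20, 82.4% to 83.7% were even, the excess that counting a fragment by each of its reads would give, so counting limits are too narrow. Libraries were made with a stranded mRNA kit, per the labels' protocols.

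Counts were tested with edgeR 4.0.16 (R 4.3.3): filterByExpr, TMM, glmQLFit (robust=TRUE) and then glmQLFTest of the genotype term in the 6 libraries (two-sided; Benjamini-Hochberg over 24914 genes). Standard errors are the log2 fold change divided by the square root of F. The procedure was tested on simulated data. TPM served for levels between genes. The deposited TPM were not the deposited counts scaled by a fixed length per gene. DREB1B had 0.403 and 0.376 CPM in WT replicates 2 and 3, but 0.811 and 0.561 TPM. The reason was not tested. Shares, orders and overlaps given in TPM may therefore differ from those in counts. Alternatives used DESeq2 1.42.0 and limma 3.58.1 among others. Deviations from the group means correlated by 0.0117, -0.0173 and 0.0098 between libraries of the same replicate number, so the numbers form no pairs. Replicates differed by more than sampling noise, and none was counted as a duplicate.

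The members and lists were chosen with earlier results of these data known. Names come from published locus numbers, as the files give none; the reference table (assembly ASM3414082v1) placed 9 of the 10 DREB1 names, all on the expected chromosome, and did not hold DREB1D. Over members, lists and markers it placed 32 of 61 names on the expected chromosome, with all 47 pairs sharing one in the same order, and 3 on another; 2 matched several genes and 24 were not found. Named genes were all members, OsINO80, and in each list the 6 with the smallest p and any that passed with a 1.5-fold change; of neighbouring loci, those past 2-fold. ICE1, LIP9, DREB2B, DREB2C, LOC_Os06g03660, LOC_Os09g35000 and the neighbours of DREB1F were chosen after their values were seen. No sequences or coordinates are given.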

Additional observations from a re-analysis of the deposited data

How the results depend on the processing

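Over 17 alternatives the genes higher in osino80 numbered 3767 to 4676 (4596 with the main settings) and those lower 3643 to 4773 (4767). DREB1B and DREB1A stayed higher and past the threshold in all 17, at 1.81 to 3.07 and 1.75 to 2.47 on the log2 scale; the lowest values came from log2(TPM + 1), whose pseudocount shrinks changes of low genes. The number of DREB1 members past the threshold was 2 to 4, all higher, as DREB1H lost its call in 8 alternatives and DREB1E gained one on TPM. Without WT replicate 2 the log2 fold change of DREB1C was 0.0597, and without osino80 replicate 1 that of DREB1I was 0.0731, both opposite in sign to the main value; leaving out 1 library at a time gave -0.7485 to 0.0597 for DREB1C and -0.4212 to 0.0731 for DREB1I, and neither passed in any.

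With limma on log2(TPM + 1) and on log2(TPM + 0.1), 3 other AP2/ERF genes rose and 1 gene listed as a regulator fell. With log2(TPM + 0.1) 3 neighbouring loci rose. The cause was not tested. Leaving out 1 library gave 1 to 2 regulators that fell and 3 to 7 neighbouring loci that rose. Leaving out the 3 loci whose names the reference table places elsewhere, chosen after seeing the data, gave 4 AP2/ERF genes that rose. HOS1, AP59 and EREBP1 also lost their calls on TPM with either pseudocount, and TPP1 with DESeq2 and on log2(TPM + 0.1). MYB30 passed with limma voom and on TPM, and SIZ1 with the replicate block, both other scalings, a mean count of at least 10 and halved counts. The replicate numbers gave no pairing in the check above; with the replicate number as a block 4556 genes were higher and 4773 lower, and 2 DREB1 members were past the threshold. Of the osino80 libraries, replicate 3 correlated best with the WT library of its own number, and replicates 1 and 2 did not. Depth limits the low members: DREB1D, DREB1F and DREB1J could not be tested with the main filter.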
